A study of Homo sapiens with 24 samples.

Results

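The comparison set 3 libraries labelled RBPMS knockout (KO) against 3 labelled wild type (WT), all taken after 3 h of mesoderm induction, out of 24 libraries in the series. The cells were HUES6, a human embryonic stem cell line, grown in FTDA medium and given 1.5 ng/ml of BMP4 and 1.5 µM of CHIR. The remaining libraries, used here to place the 3 h values, were KO and WT at 6 h and 48 h of the same induction and at 0 h, with 3 in each group. The KO cells are described as derivatives of the HUES line. How many clones they came from, and whether replicates were grown apart, was not given in the sources used here. Each p-value below therefore rests on a spread between libraries that may be technical. That spread was pooled over all 8 groups of the series, so it is not that of the 3 h libraries alone. Of the 57820 genes in the table, 19835 held enough reads to be tested.

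RBPMS encodes an RNA-binding protein with an RNA recognition motif, best known as a regulator of alternative splicing in smooth muscle. BMP4 signals through SMAD proteins, and CHIR inhibits the kinase GSK3 and so stabilises beta-catenin, the effector of WNT signalling. Together they move stem cells from the pluripotent state towards a primitive streak state, the source of mesoderm in the embryo, and the earliest hours of such a stimulus include a pulse of immediate early transcription factors.

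The 3 KO libraries held 38899614, 38862978 and 46273311 reads, and the WT libraries held 46082294, 41756699 and 39821793. Levels are given as CPM, reads scaled to a common library total with no division by gene length, so they compare libraries and not genes. A level of 0 allowed up to 0.0648 to 0.0772 CPM in these 6 libraries (3 reads), which covers counting error only. KO library 3 stood apart. Its Pearson r with its mates across genes was 0.988 to 0.989, against 0.996 between those mates and 0.997 among WT libraries, and genes are not independent replicates. Its deviation from its mates followed exon length (r = 0.30 across genes), against -0.272 and -0.185 in KO libraries 1 and 2. The mates of those libraries include library 3, so the KO values are tied to each other. In WT libraries r was -0.0407 to 0.0657. Cytosolic ribosomal protein reads made up 3.52% of all reads in KO library 3, against 6.18% and 6.50% in KO libraries 1 and 2 and 5.99% to 6.58% in WT. Outside the 3 h groups, WT library 1 of 0 h also stood apart, as did WT library 3 of 48 h. KO library 1 had 5.24% of its reads from mitochondrially encoded genes, against 3.12% to 3.13% in the other KO libraries and 3.67% to 3.96% in WT.

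The targeted gene did not check the label. RBPMS (ENSG00000157110.11) stood at 93.1, 90.5 and 103.7 CPM in KO libraries, against 105.5, 105.1 and 106.9 CPM in WT libraries, a log2 difference of -0.14 ± 0.082 (SE, limma, adjusted p = 0.405). The gene total cannot show a small deletion or a frameshift. Its paralog RBPMS2 averaged 92.5 ± 23.6 CPM in KO, against 78.7 ± 2.51 CPM in WT (SD, n = 3 each; adjusted p = 0.414). Markers of the stem cell state were abundant in every library. POU5F1, a core pluripotency factor, ranged from 1900 to 2131 CPM in KO, against 2061 to 2395 CPM in WT. EOMES, a T-box factor of the primitive streak, averaged 92 ± 9.84 CPM in KO, against 75.8 ± 1.24 CPM in WT at 3 h (SD, n = 3 each). Its means at 0 h were 0.0923 CPM in KO, against 0.112 CPM in WT. At 6 h they were 9.57 CPM in KO, against 10.1 CPM in WT, under those of 3 h in both genotypes.

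At 3 h, 171 genes were higher in KO (0.862% of those tested) and 381 were lower (1.92%), by limma on log2(CPM + 0.25) with Benjamini-Hochberg adjusted p under 0.05. In all 552 (2.78%) the 3 KO libraries did not overlap the 3 WT libraries. Such a gap on the higher side was found in 13.1% of all genes tested, and one on the lower side in 11%. The decreases were the larger changes. Of the lower genes 200 changed at least 2-fold and 44 at least 8-fold, against 26 and 1 of the higher genes. The median log2 difference was 0.61 among higher genes and -1.06 among lower genes, with 0.0155 over all genes tested. Without KO library 3 there were 84 higher and 366 lower genes, of which 66 and 291 were also called with it. The count of higher genes was also 80, 58 or 69 without WT library 1, 2 or 3, and 284 without KO library 2. Without the 3 libraries that stand apart, KO library 3 among them, 739 were higher and 1112 lower. A call lost without KO library 3 alone is therefore not shown to rest on that library.

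**Figure D1:**
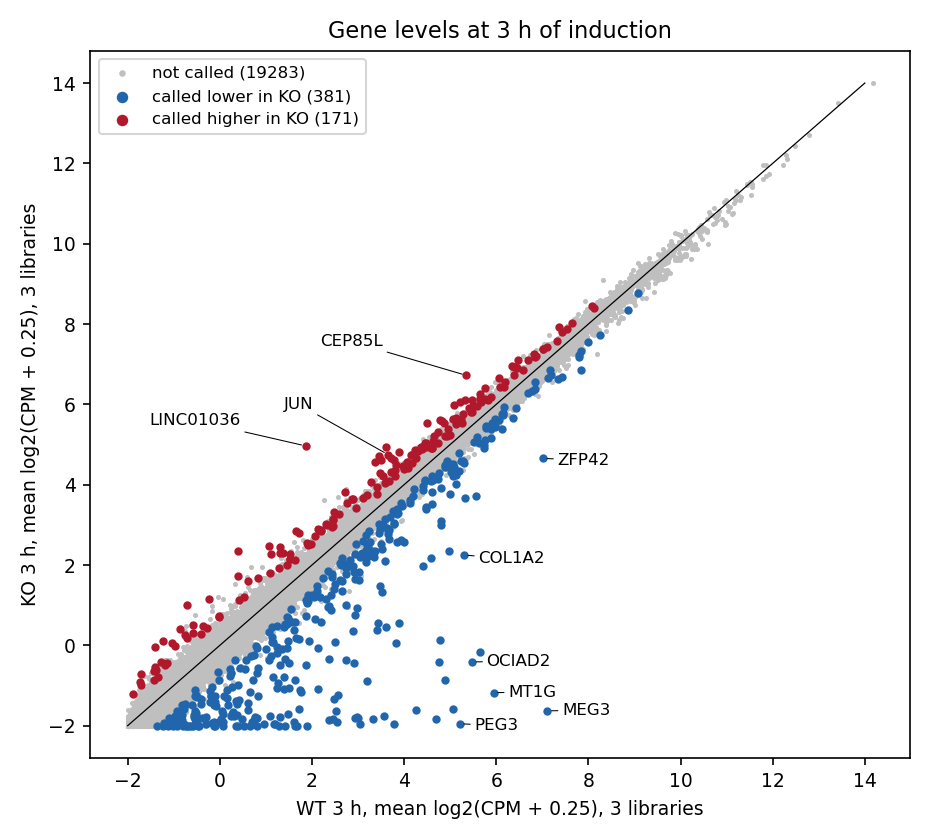
Mean log2(CPM + 0.25) of each tested gene in the 3 KO libraries of 3 h (vertical axis) against the 3 WT libraries (horizontal axis), with the 171 genes called higher in KO in red, the 381 called lower in blue, the rest in grey, and the line of equal level. A band of blue points lies along the bottom edge, where genes with reads in every WT library had almost none in KO, and no such band of red points lies at the left edge.

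A small set of genes was nearly silent in KO and plainly expressed in WT. By a rule chosen after these values were seen, at most 0.5 CPM in every KO library and at least 5 CPM in every WT library, 17 genes qualified at 3 h (0.0857%), and 0 met the reverse. They were MEG3, PEG3, MT1G, MT1H, CBR1, MGMT, TMLHE, the zinc finger genes ZNF253, ZNF558, ZNF844, ZNF506, ZNF680, ZNF528 and ZNF560, the pseudogenes BX322639.1 and FAR2P2, and the processed transcript AC010615.2. Of these 13 are protein-coding, and 8 lie on chromosome 19. Just outside the rule were, among others, OCIAD2, ZNF22 and LNCPRESS1, each with a KO library above the ceiling, and NNAT, with WT libraries from 4.49 CPM.

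All 17 were at or below the same ceiling in the 3 KO libraries of 6 h, and all were called lower there. In the libraries of 0 h and 48 h most were expressed. Each hour was measured in its own libraries, and a difference of culture between the hours was not tested. In 13 of the 17 every KO library of 0 h had at least 5 CPM, in 12 every KO library of 48 h did, and in 11 both held. The KO minus WT difference at 3 h was called against that at 0 h in all 17 (limma, test of the difference). Against 48 h it was called in 15, and against 6 h in 0, where the lowest adjusted p over all genes was 0.394. Over all genes tested 9.04% were called against 0 h and 9.62% against 48 h. The 17 were chosen by their 3 h values, which favours such calls, so these counts carry no test of their own. Sets of this size were found at 6 h (19 genes, 0.0958%), while 0 h had 0 genes and 48 h had 4 (0.0202%).

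CBR1 (ENSG00000159228.8, chromosome 21, plus strand, 36069941 to 36073166 in GRCh38), a carbonyl reductase, showed the pattern in full. It had 0.103, 0.0772 and 0.0432 CPM in KO libraries, against 18.4, 19.2 and 17.7 CPM in WT libraries at 3 h (log2 difference -5.88 ± 0.165, adjusted p = 9.95e-18). At 0 h the KO libraries held 29.5 to 36.8 CPM and the WT libraries 33.9 to 43.4 CPM, and at 48 h 69.7 to 70.8 CPM in KO, against 115.9 to 204.7 CPM in WT. MGMT (ENSG00000170430.9, chromosome 10, plus strand, 129467184 to 129768007), which repairs alkylated guanine in DNA, had 0.0771, 0.0257 and 0 CPM in KO, against 7.12, 8 and 7.58 CPM in WT at 3 h (log2 difference -4.82 ± 0.270, adjusted p = 6.13e-12). At 0 h the MGMT levels were 5.44 to 6.69 CPM in KO, against 5.24 to 17.1 CPM in WT, and the groups overlapped. TMLHE, which starts carnitine synthesis, averaged 0.0415 ± 0.0543 CPM in KO, against 7.43 ± 1.02 CPM in WT at 3 h (n = 3 each), and its KO levels at 48 h were 25.6, 21.3 and 24.4 CPM.

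OCIAD2 and ZNF22 had a few reads left in KO. OCIAD2, a mitochondrial membrane protein gene, stood at 0.668, 0.515 and 0.324 CPM in KO, against 40.6, 43.6 and 45.1 CPM in WT (-5.88 ± 0.218, adjusted p = 1.92e-15). ZNF22, a zinc finger gene, stood at 0.617, 0.721 and 0.562 CPM in KO, against 48.6, 46.3 and 51.5 CPM in WT (-5.81 ± 0.129, adjusted p = 1.7e-19). In KO libraries of 0 h ZNF22 had 54.8 to 57.8 CPM and OCIAD2 10.1 to 11.5 CPM. LNCPRESS1, a long noncoding RNA known from human pluripotent cells, averaged 0.5 ± 0.167 CPM in KO, against 26.1 ± 0.736 CPM in WT (n = 3 each, -5.17, adjusted p = 1.17e-16).

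**Figure D2:**
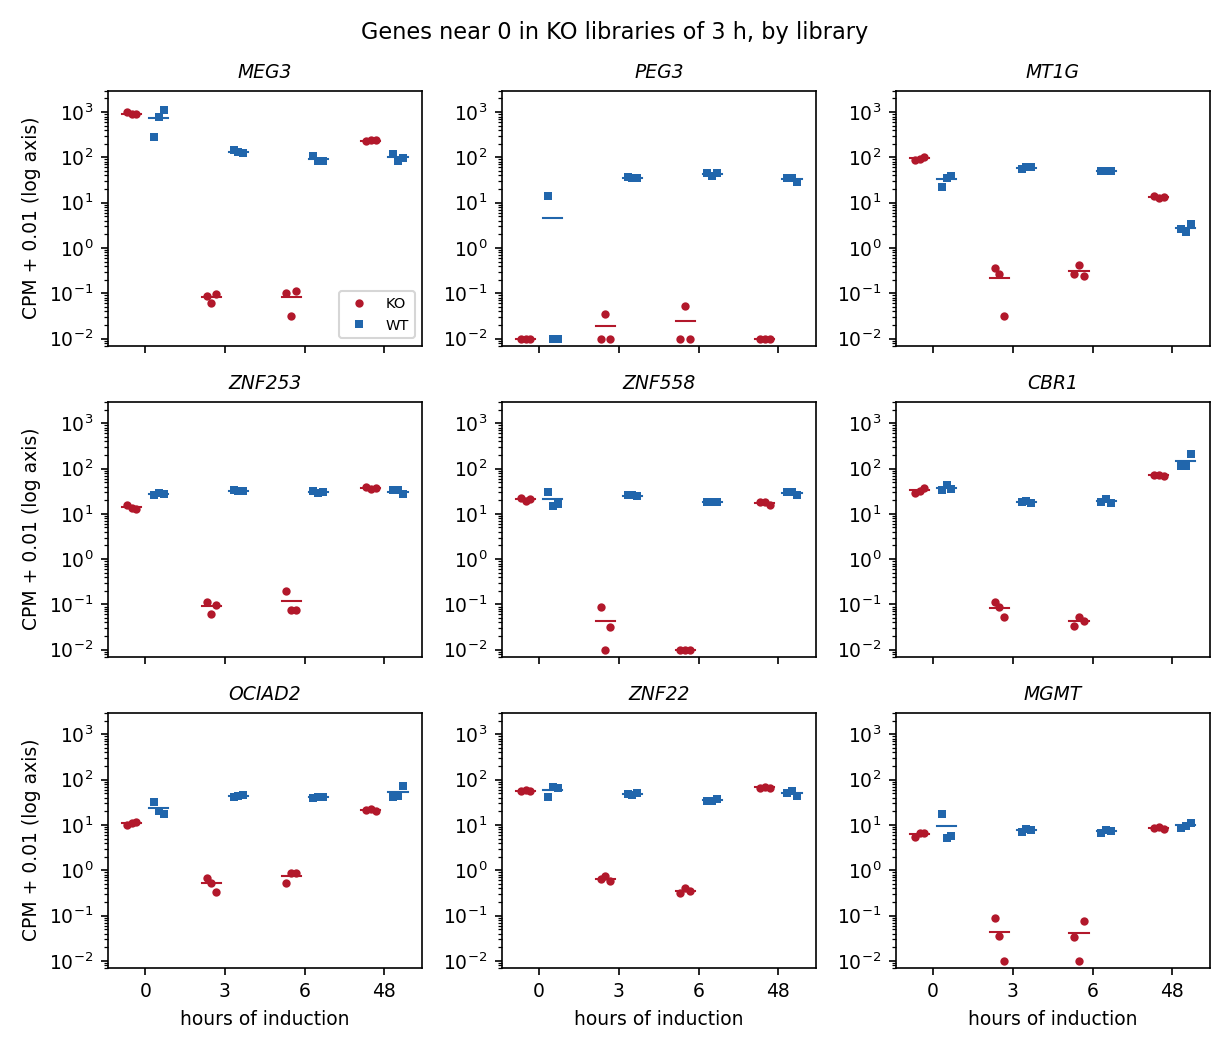
Level of 9 genes in each of the 24 libraries on a log axis of CPM + 0.01, by hour of induction, with KO as red circles to the left, WT as blue squares to the right and group means as bars. KO libraries of 3 h and 6 h sit far below WT, and in all genes shown but PEG3 the KO libraries of 0 h and 48 h are within the range of expressed genes (for CBR1 29.5 to 36.8 CPM at 0 h).

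The promoters of 3 such genes are shown with their CpG sites, the sites at which vertebrate DNA is methylated, since methylation of a CpG-dense promoter is known to go with silence of its gene. They are RefSeq sequences of GRCh38.p14 on the plus strand, from 250 bases before the start to 50 bases after it, with each CpG in capitals. MGMT lies at chr10:129466991-129467290 with 45 CpG sites, CBR1 at chr21:36069774-36070073 with 27, and ZNF22 at chr10:45000673-45000972 with 25, beside a median of 25 over the promoters of protein-coding genes tested. DNA methylation was not measured.

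MGMT: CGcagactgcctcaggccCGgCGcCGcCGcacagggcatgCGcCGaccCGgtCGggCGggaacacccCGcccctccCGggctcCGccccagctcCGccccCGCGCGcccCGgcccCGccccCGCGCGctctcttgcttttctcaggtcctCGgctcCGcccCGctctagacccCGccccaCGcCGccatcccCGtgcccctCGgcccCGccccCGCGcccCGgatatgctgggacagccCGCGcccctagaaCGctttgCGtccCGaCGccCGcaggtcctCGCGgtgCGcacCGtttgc
CBR1: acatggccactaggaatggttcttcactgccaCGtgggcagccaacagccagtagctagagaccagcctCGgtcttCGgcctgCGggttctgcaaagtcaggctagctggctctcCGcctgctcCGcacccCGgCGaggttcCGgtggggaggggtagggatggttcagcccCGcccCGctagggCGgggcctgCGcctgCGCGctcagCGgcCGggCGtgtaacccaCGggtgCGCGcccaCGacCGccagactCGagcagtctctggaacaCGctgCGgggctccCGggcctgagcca
ZNF22: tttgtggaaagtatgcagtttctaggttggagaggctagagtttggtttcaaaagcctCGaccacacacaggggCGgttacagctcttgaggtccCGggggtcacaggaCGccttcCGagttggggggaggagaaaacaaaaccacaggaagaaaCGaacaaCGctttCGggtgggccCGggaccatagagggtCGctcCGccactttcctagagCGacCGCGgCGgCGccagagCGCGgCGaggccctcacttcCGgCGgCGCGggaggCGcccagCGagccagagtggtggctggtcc

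Of the 302 protein-coding genes called lower, 245 had a promoter entry and 64.9% of those were CpG-rich (over 50% GC and an observed to expected CpG ratio over 0.6), against 75.6% of all protein-coding genes tested that had an entry. Where under 80% of a set had an entry its share is not read. This holds for the protein-coding near-silent genes, of which 9 of 13 had an entry and 8 of those 9 were CpG-rich, and for the higher genes, of which 118 of 150 had an entry and 91 of those 118 were CpG-rich.

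Imprinted genes, which are expressed from a single parental copy, held the largest difference of all. Of 30 measured, 5 were lower (MEG3, PEG3, NNAT, MEG8 and MEG9), 2 were higher (DIO3 and PEG10) and 23 were not called, with a median log2 difference of 0.0063. Over all genes tested 1.92% were lower and 0.862% higher. MEG3 (ENSG00000214548.10, chromosome 14, plus strand, 100779410 to 100861031), a long noncoding RNA of the maternal copy, had 0.0771, 0.0515 and 0.0864 CPM in KO, against 146.2, 132.1 and 126.2 CPM in WT, a log2 difference of -8.74 ± 0.272 (adjusted p = 5.92e-17). In KO libraries of 0 h the MEG3 level was 890.2 to 998.3 CPM. MEG8 and MEG9, noncoding RNAs downstream on the same strand, had 0 reads in all 3 KO libraries. MEG8 averaged 0.783 ± 0.167 CPM in WT (n = 3), at least 10.7-fold more than KO against the floor of 3 reads per library, and MEG9 averaged 2.38 ± 0.293 CPM in WT, at least 32.5-fold more. DIO3, a paternally expressed gene of that cluster that inactivates thyroid hormone, went the other way, with 0.925, 0.978 and 0.843 CPM in KO, against 0.391, 0.335 and 0.276 CPM in WT (1.01 ± 0.171, adjusted p = 0.000555). DLK1, another paternally expressed gene there, averaged 0.597 CPM in KO, against 0.616 CPM in WT and was not called.

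PEG3 (ENSG00000198300.8, chromosome 19, minus strand, 56810077 to 56840728), a paternally expressed zinc finger gene, had a single read over the KO libraries and 36.3, 35.7 and 35.4 CPM in WT, 4443 times lower in KO (95% counting interval 797.1 to 175500). Unlike MEG3, PEG3 had 0 CPM in every KO library of 0 h and 48 h as well, and WT library 1 of 0 h had 13.8 CPM while the other WT libraries of 0 h had 0. Its difference at 3 h was called against that at 0 h (adjusted p = 0.00525) and not against that at 48 h (adjusted p = 0.949). NNAT, an imprinted gene for a small membrane protein, averaged 0.0343 ± 0.0594 CPM in KO, against 5.16 ± 0.876 CPM in WT (n = 3 each, -4.29, adjusted p = 1.03e-13). PEG10, a gene derived from a retrotransposon, had 312.7, 332.9 and 384.8 CPM in KO, against 267.5, 263.9 and 258.4 CPM in WT (0.38 ± 0.077, adjusted p = 0.00428), with library 3 the highest of the KO libraries.

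Metallothioneins are small cysteine-rich proteins that bind zinc and copper, and metal induces them through the factor MTF1, which binds metal response elements in their promoters. Of 12 measured genes of the list, 2 were lower (MT1G and MT1H) and 10 were not called, where 1.92% of all genes tested were lower. MT1G (ENSG00000125144.9, chromosome 16, minus strand, 56666731 to 56668065) had 0.36, 0.257 and 0.0216 CPM in KO, against 55.8, 61.1 and 62.2 CPM in WT (-7.12 ± 0.221, adjusted p = 5.92e-17). MT1H (ENSG00000205358.3, chromosome 16, plus strand, 56669814 to 56671129) had 0, 0.129 and 0.0216 CPM in KO, against 11.4, 11.7 and 10.9 CPM in WT (-5.32 ± 0.298, adjusted p = 6.13e-12). MT1G and MT1H were near 0 in every KO library of 3 h, while other members of the cluster were expressed. MT2A had 164.2, 180.1 and 62.5 CPM in KO, against 94.0, 101.8 and 120.0 CPM in WT (0.23 ± 0.238, adjusted p = 0.667). For MT1E the levels were 52.3, 63.1 and 25.7 CPM in KO, against 32.7, 36.0 and 40.3 CPM in WT, and for MT1X the means were 22.4 ± 9.87 CPM in KO, against 24.4 ± 4.86 CPM in WT (n = 3 each). KO library 3 was the lowest of its group in MT2A, MT1E and MT1X. Without it MT2A was called higher (0.71, adjusted p = 0.00307), as was 1 other member, and MT1G and MT1H were still the 2 lower. Without KO library 2 the MT2A difference was -0.0466, of the other sign. Reads of these near-identical genes can be split between copies by the authors' counting, so single levels are uncertain.

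The promoters of MT1H and MT2A are shown because these genes differed in behaviour and both hold metal response elements. Capitals mark each match to TGCACNC or TGCGCNC on either strand, and both are RefSeq sequences of GRCh38.p14 on the plus strand. MT1H lies at chr16:56669564-56669863 and MT2A at chr16:56608334-56608633. Each held 8 matches, and MT1X held 4. Of all 27305 RefSeq promoters of this length 29.3% held at least 1 match and 2.27% at least 3. Among promoters of the genes tested the shares were 38.0% and 3.28%. A match is a run of letters and not a bound site.

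MT1H: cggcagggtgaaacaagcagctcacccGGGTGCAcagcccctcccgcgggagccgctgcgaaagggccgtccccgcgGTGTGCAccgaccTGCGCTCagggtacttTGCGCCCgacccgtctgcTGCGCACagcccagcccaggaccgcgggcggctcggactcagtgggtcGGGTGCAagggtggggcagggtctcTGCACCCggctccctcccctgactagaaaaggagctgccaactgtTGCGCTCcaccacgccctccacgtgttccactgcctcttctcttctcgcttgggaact
MT2A: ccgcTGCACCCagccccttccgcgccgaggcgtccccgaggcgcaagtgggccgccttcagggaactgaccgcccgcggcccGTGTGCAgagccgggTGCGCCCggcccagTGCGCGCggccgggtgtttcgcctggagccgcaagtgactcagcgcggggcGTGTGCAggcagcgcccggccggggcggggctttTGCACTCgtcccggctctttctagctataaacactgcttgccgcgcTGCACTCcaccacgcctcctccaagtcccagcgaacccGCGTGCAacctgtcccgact

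Zinc finger genes of chromosome 19, most of which encode KRAB repressors of transposable elements, were often lower. Of 240 tested, 33 were lower (13.8%) and 1 was higher, against 14 lower of 253 zinc finger genes elsewhere (5.53%) and 31 of 1120 other genes on chromosome 19 (2.77%). The grouping was made after these values were seen, so the shares carry no test. The single higher gene, ZFP36, shares the symbol stem and is a decay factor for mRNAs. The median log2 difference over the 240 was -0.0456, close to that over all genes. Of the 33, 28 were also called lower at 6 h.

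ZNF253 (ENSG00000256771.2, chromosome 19, plus strand, 19865886 to 19894674) had the largest change of the family. Its KO libraries held 0.103, 0.0515 and 0.0864 CPM and its WT libraries 32.9, 31.3 and 32.4 CPM at 3 h (-6.65 ± 0.121, adjusted p = 3.81e-21). At 0 h ZNF253 had 12.8 to 16 CPM in KO, against 25.7 to 28.5 CPM in WT. ZNF558 followed with 0.0771, 0 and 0.0216 CPM in KO, against 25.6, 25.4 and 24.1 CPM in WT (-6.52 ± 0.176, adjusted p = 5.16e-18). Other members fell by less. ZNF486 averaged 3.69 CPM in KO, against 20.5 CPM in WT, ZNF254 34.8 CPM in KO, against 57.2 CPM in WT, and ZNF649 140.4 ± 6.95 CPM in KO, against 216.8 ± 3.06 CPM in WT (n = 3 each, -0.62, adjusted p = 9.48e-07). The members so ranged from near silence to a change of under 2-fold. Among lower zinc finger genes of this chromosome with a promoter entry (27 of 33), 59.3% were CpG-rich, against 78.7% of those not lower (183 of 207).

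Genes on chromosome X were lower in 32 of 695 cases (4.6%), with 6 higher, against 1.92% lower and 0.862% higher over all genes tested. TMLHE was the only near-silent gene among them, and ARMCX1, an armadillo repeat gene of that chromosome, averaged 4.7 ± 0.594 CPM in KO, against 30.6 ± 0.718 CPM in WT (n = 3 each, -2.65, adjusted p = 4.59e-15). Of the 32 lower genes of chromosome X, 17 were also called lower at 6 h, against 275 of all 381 lower genes. By chromosome the share lower ran from 0.648% on chromosome 22 to 4.71% on chromosome 19, with 3.68% on chromosome 4. These shares carry no test.

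Among 30 pluripotency genes 4 were lower (ZFP42, DPPA2, DPPA5 and GDF3), 0 were higher and 26 were not called, with a median log2 difference of -0.0848. Over all genes tested 1.92% were lower and 0.862% higher. ZFP42 (ENSG00000179059.5), a zinc finger marker of the undifferentiated state, had 24.9, 25.8 and 22.2 CPM in KO, against 127.6, 124.3 and 124.5 CPM in WT (-2.36 ± 0.180, adjusted p = 2.03e-09). At 0 h ZFP42 had 210.3 to 213.4 CPM in KO, against 107.9 to 256.1 CPM in WT. DPPA2, a chromatin factor of early embryos, had 6.07, 6.07 and 5.29 CPM in KO, against 14.7, 15.4 and 13.8 CPM in WT (-1.29 ± 0.090, adjusted p = 3.9e-10). DPPA5 was lower from a low level (0.133 ± 0.0529 CPM in KO, against 1 ± 0.213 CPM in WT, n = 3 each). GDF3, a ligand of the NODAL family, had 11.6, 12.3 and 7.87 CPM in KO, against 21.1, 20.9 and 22.8 CPM in WT (-1.03, adjusted p = 0.0118), with KO library 3 the lowest, and the call was lost without that library (-0.84, adjusted p = 0.0928) or without WT library 3. The core factors were not called: NANOG averaged 78 ± 12.7 CPM in KO, against 95.1 ± 1.15 CPM in WT (adjusted p = 0.167), and SOX2 164 ± 27.2 CPM in KO, against 188 ± 4.35 CPM in WT (adjusted p = 0.377).

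Germ line genes known to be silenced by DNA methylation in body tissues had the lowest median of the 32 lists, -0.616. Of 19 measured, 5 were lower (NLRP7, DPPA5, MAGEA4, TDRD1 and DAZL) and 0 were higher, where 1.92% of all genes tested were lower. In 12 of the 19 the KO libraries all lay below the WT libraries, as they did in 11% of all genes. The summed level of the list was 205.0, 214.7 and 339.6 CPM in KO, against 276.1 to 293.4 CPM in WT, so KO library 3 lay above WT and the other KO libraries below. Levels were low. NLRP7, a gene active in oocytes, had 0.283, 0.283 and 0.389 CPM in KO, against 2.04, 1.94 and 1.78 CPM in WT (-1.95, adjusted p = 1.38e-05). TDRD1, which acts in the piRNA pathway of germ cells, averaged 0.129 ± 0.0258 CPM in KO, against 0.628 ± 0.164 CPM in WT (n = 3 each). MAGEA4, a cancer-testis antigen, had 0.797, 1.03 and 0.324 CPM in KO, against 2.3, 2.18 and 2.29 CPM in WT, and its call was lost without KO library 3 (-1.12, adjusted p = 0.0801). TEX13B was not called, at 11.3 CPM in KO, against 10.3 CPM in WT (adjusted p = 0.857). Without KO library 3 the list had 3 lower.

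Matrix and contractile genes gave few calls, which stand beside 1.92% called lower over all genes tested. COL1A2 (ENSG00000164692.13), a chain of type I collagen, had 3.39, 3.55 and 6.92 CPM in KO, against 40.4, 37.8 and 35.9 CPM in WT (-3.05 ± 0.166, adjusted p = 3.46e-12), while COL1A1, its partner chain, averaged 63.8 CPM in KO, against 79.6 CPM in WT and was not called (adjusted p = 0.278). Of 31 collagens and matrix genes 2 were lower, COL1A2 and TNC, a matrix glycoprotein gene with 13, 11.2 and 16.8 CPM in KO, against 24.6, 23.9 and 22.1 CPM in WT (-0.79, adjusted p = 0.00752). Of 31 contractile and actin genes 2 were lower. CNN1, which encodes calponin of smooth muscle, had 16, 13.2 and 14.5 CPM in KO, against 25.9, 28.3 and 26.3 CPM in WT (-0.87 ± 0.103, adjusted p = 4.28e-06), and MYL9, a myosin light chain gene, averaged 42.2 ± 3.07 CPM in KO, against 60.6 ± 1.16 CPM in WT (n = 3 each, -0.52, adjusted p = 0.0121). The MYL9 call was lost without KO library 3 or WT library 3. Beside these, the summed level of 13 fibroblast and stroma markers was 803.1 to 997.6 CPM in KO, against 1106 to 1159 CPM in WT, with 1 of 13 called lower, COL1A2 itself (4 others of the list held too few reads to be tested). Without KO library 3, which had the highest sum of its group, 5 of the 13 were called lower and 6 of the 31 matrix genes. Over all genes tested 366 were lower without it. Fewer cells of a type and less RNA per cell cannot be told apart in such libraries, and the part of these markers in the matrix results was not tested.

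Of the genes higher in KO, LINC01036 (ENSG00000230426.1, chromosome 1, plus strand, 187070700 to 187686622), a long noncoding RNA, was the only one past 8-fold. It had 35, 37.3 and 21 CPM in KO, against 3.8, 3.19 and 2.96 CPM in WT (3.10 ± 0.564, adjusted p = 0.00129). In KO libraries of 0 h it had 0.0262 to 0.125 CPM and in those of 6 h 25.3 to 26.1 CPM. CEP85L (ENSG00000111860.9), a centrosomal protein gene, had 105.4, 106.9 and 95.7 CPM in KO, against 40.6, 37.9 and 39.7 CPM in WT (1.38 ± 0.232, adjusted p = 0.00053). KCNAB1, a potassium channel subunit gene, had 5.35, 5.66 and 4.47 CPM in KO, against 1.89, 1.82 and 1.71 CPM in WT (1.40, adjusted p = 0.000432). In these 3 genes KO library 3 was the lowest of its group and still above every WT library.

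FAAH, which breaks down the endocannabinoid anandamide, had 22.3, 20.1 and 25.9 CPM in KO, against 9.48, 10.4 and 9.64 CPM in WT (1.19, adjusted p = 0.000567). ELMO1, which activates the GTPase RAC in cell migration, had 22.2, 21.3 and 27.4 CPM in KO, against 11.2, 10.9 and 10.2 CPM in WT (1.11, adjusted p = 0.000229). Both were called at 6 h too, as was APOLD1 (1.09 at 3 h). MORC4 averaged 29.8 ± 5.78 CPM in KO, against 11.6 ± 0.133 CPM in WT (n = 3 each, 1.33, adjusted p = 0.00851) and PLXDC1 5.1 ± 0.62 CPM in KO, against 2.17 ± 0.163 CPM in WT (1.15, adjusted p = 0.00238), and neither was called at 6 h (adjusted p = 0.0512 and 0.117). Without KO library 3 alone the MORC4 call was lost (1.17, adjusted p = 0.0626), and without the 3 libraries that stand apart it was not.

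With all libraries, immediate early genes gave the most higher calls of any list, and without KO library 3 they tied with metallothioneins and imprinted genes at 2. Of 33 measured, 8 were higher (EGR3, JUN, ARC, JUND, NR4A2, ZFP36, IER2 and KLF6), 0 were lower, and in 22 every KO library was above every WT library, where 0.862% of all genes were called higher and 13.1% had such a gap. The list's median log2 difference was 0.43, against 0.0155 over all genes. EGR3, a zinc finger factor downstream of ERK signalling, had 22.5, 19.2 and 36.4 CPM in KO, against 11, 9.03 and 11.8 CPM in WT (1.24 ± 0.204, adjusted p = 0.00041). JUN, a subunit of the AP-1 factor, had 21.6, 20.4 and 39.6 CPM in KO, against 12.4, 11.9 and 11.7 CPM in WT (1.10 ± 0.242, adjusted p = 0.00954). For JUND, another AP-1 subunit, the levels were 19.9, 20.9 and 34.8 CPM in KO, against 11.6, 12.5 and 13.7 CPM in WT (0.95 ± 0.173, adjusted p = 0.00134). The JUND call was lost with only the 3 h groups fitted (limma, adjusted p = 0.0657), as was the JUN call. KO library 3 was the highest of its group in all 8 called genes and in 30 of the 33, against 46.3% of all genes tested. KO libraries 1 and 2 were also above every WT library in the 8 called genes, by a smaller amount. The same gap was found in all 171 genes called higher, so it is not particular to this list.

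The number called varied with the setting. Without the 3 libraries that stand apart, KO library 3 among them, 15 of the 33 were called higher, where 739 of all genes were. DESeq2 with all libraries called 12 of the 33 higher, and 327 of all genes. Without KO library 3 alone, 2 of the 33 remained called, EGR3 (0.97, adjusted p = 0.00426) and JUND (0.69, adjusted p = 0.0101), and JUN stood at 0.80 (adjusted p = 0.0909). The list's median was then 0.31. ARC, which encodes a synaptic protein induced by activity, had 10.5, 9.19 and 25.9 CPM in KO, against 6.64, 6.27 and 5.58 CPM in WT (1.12, adjusted p = 0.0386), and its value without that library was 0.65 (adjusted p = 0.273). SCARF2, a scavenger receptor gene, and VGF, a neuropeptide precursor gene, outside the list, were alike: 4.73, 4.55 and 14.1 CPM of SCARF2 in KO against 2.97, 2.56 and 2.91 CPM in WT gave 1.2, and 0.68 without KO library 3 (adjusted p = 0.0838), and VGF gave 1.04, and 0.63 without it (adjusted p = 0.233). The calls of ARC, SCARF2 and VGF were also lost without any one of the WT libraries. EGR1, the best known member, had 340.0, 315.9 and 482.2 CPM in KO, against 228.9, 242.9 and 242.3 CPM in WT and was not called (0.65 ± 0.546, adjusted p = 0.585), with a spread pooled over groups that included 11.5 to 172 CPM within WT at 0 h. FOS averaged 48.1 ± 7.29 CPM in KO, against 36 ± 1.21 CPM in WT (n = 3 each, adjusted p = 0.65).

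**Figure D3:**
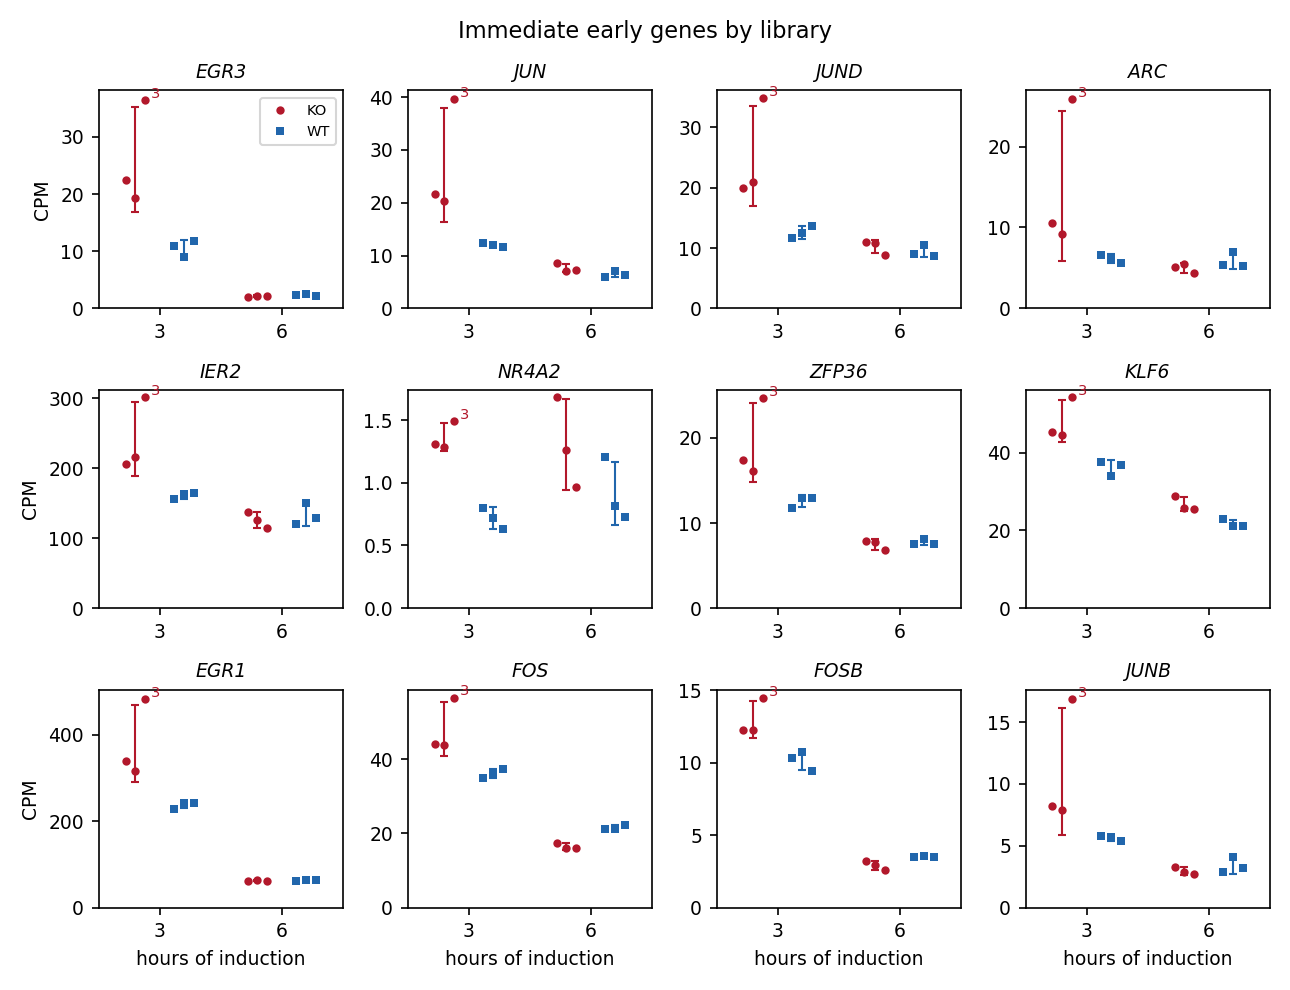
Level in CPM of 12 immediate early genes in the libraries of 3 h and 6 h, KO as red circles to the left and WT as blue squares to the right, with bars for mean ± SD (n = 3) and KO library 3 of 3 h marked 3. At 3 h the KO points lie above the WT points and library 3 lies highest, as in JUN with 39.6 CPM, while at 6 h the groups lie close together.

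At 6 h, 0 of the 33 immediate early genes were called in limma, and EGR3 stood at 2.13 ± 0.143 CPM in KO, against 2.32 ± 0.218 CPM in WT (n = 3 each). The test of the difference between the hours called none of the 33, and gave EGR3 an adjusted p of 0.462. NAB2 and CSRNP1, picked after their values were seen, are also known to follow EGR and AP-1 signals. NAB2, a co-repressor of EGR factors, had 61.6, 55.3 and 79.0 CPM in KO, against 37.1, 35.7 and 35.3 CPM in WT (0.84 ± 0.122, adjusted p = 7.75e-05), and CSRNP1 had 25.6, 20.3 and 38 CPM in KO, against 14.9, 13.4 and 14.2 CPM in WT (0.92 ± 0.149, adjusted p = 0.000329). Both had their highest level in KO library 3. In the FGF and ERK feedback list 1 of 20 was higher, where 0.862% of all genes tested were. This was DUSP5, a phosphatase of ERK (0.50, adjusted p = 0.03), and its call was lost without KO library 1 or 3 or any WT library.

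Genes of the lineages that induction leads to showed little difference at this hour. Of 20 primitive streak genes 0 were called by limma, edgeR or DESeq2, and 1 had an unadjusted p under 0.05 in limma, as did 3111 of all 19835 genes (15.7%). TBXT, which marks nascent mesoderm, averaged 9.78 ± 2.13 CPM in KO, against 9.08 ± 0.317 CPM in WT (n = 3 each), and MIXL1, a homeobox gene of the streak, 3.42 ± 0.718 CPM in KO, against 3.18 ± 0.755 CPM in WT. The TBXT difference was 0.09, and -0.0816 without KO library 3. Paraxial mesoderm (10 genes) and definitive endoderm (10 genes) also had 0 called by limma, 1 and 0 at an unadjusted p under 0.05, 0 and 0 in edgeR, and 1 and 0 in DESeq2. In lateral plate and cardiac mesoderm 1 of 17 was higher and 1 lower, where 0.862% and 1.92% of all genes tested were. NKX2-5, a cardiac homeobox gene, was higher from a low level (0.823, 0.515 and 1.04 CPM in KO, against 0.239, 0.144 and 0.327 CPM in WT, 1.10, adjusted p = 0.000561). The NKX2-5 call was lost with only the 3 h groups fitted (limma, adjusted p = 0.0862). KDR, the receptor VEGFR2 of early mesoderm and endothelium, had 82.5, 89.6 and 122.8 CPM in KO, against 161.1, 155.0 and 154.7 CPM in WT (-0.69 ± 0.130, adjusted p = 0.00188).

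Signalling targets followed. Of 19 WNT pathway targets 0 were called by limma, edgeR or DESeq2, with 1 at an unadjusted p under 0.05, and AXIN2, a feedback target of beta-catenin, averaged 39.7 ± 9.55 CPM in KO, against 39.3 ± 2.53 CPM in WT (n = 3 each). Of 19 BMP pathway targets limma called 0, edgeR 1 higher and DESeq2 2 higher and 1 lower. In limma 6 had an unadjusted p under 0.05, as did 15.7% of all genes tested. Every KO library lay above every WT library in 7 of the 19 and below in 3, where 13.1% and 11% of all genes tested did. The BMP list had a median of 0.23 and a summed level of 1001 to 1251 CPM in KO, against 797.2 to 833.1 CPM in WT. ID3, an inhibitor of bHLH factors that SMADs induce, made up most of that gap, with 481.3, 542.3 and 576.7 CPM in KO, against 297.7, 312.7 and 316.9 CPM in WT (0.79 ± 0.25, adjusted p = 0.105). Of 17 NODAL and activin genes GDF3 alone was called, as lower, where 1.92% of all genes tested were lower. GATA2, of 12 amnion and trophoblast genes, and HES5 and SIX6, of 12 neuroectoderm genes, were higher, where 0.862% of all genes tested were. GATA2 had 11.1, 10.3 and 14.6 CPM in KO, against 7.51, 6.8 and 6.6 CPM in WT (adjusted p = 0.045), and HES5, a NOTCH target, 2.88, 3.58 and 4.08 CPM in KO, against 1.87, 2.18 and 2.39 CPM in WT (adjusted p = 0.0158), both lost without KO library 3 (adjusted p = 0.236 and 0.0975). The GATA2 call was also lost without KO library 1, any WT library or the 3 libraries that stand apart. The HES5 call was also lost without WT library 1 or 2, in edgeR and DESeq2, and with only the 3 h groups fitted. SIX6, an eye field gene, averaged 0.712 ± 0.128 CPM in KO, against 0.127 ± 0.035 CPM in WT (n = 3 each, 1.36, adjusted p = 5.42e-07).

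In the mesenchymal list 2 of 15 were higher, FOXC1 (1.16 ± 0.243 CPM in KO, against 0.419 ± 0.163 CPM in WT, n = 3 each) and PRRX1 (8.21 ± 0.886 CPM in KO, against 5.13 ± 0.459 CPM in WT), and LGALS1, a galectin gene, was lower with 13.8, 14.6 and 6.59 CPM in KO, against 21.3, 23.7 and 25.7 CPM in WT (-1.08, adjusted p = 0.0135; -0.72 and 0.116 without KO library 3). The FOXC1 call was lost without WT library 1, the LGALS1 call also without WT library 2 or 3, and the PRRX1 call without KO library 1 or 3 or any WT library. With only the 3 h groups fitted the calls of FOXC1, LGALS1 and PRRX1 were lost too. Over all genes tested 0.862% were higher and 1.92% lower. In the hypoxia and glycolysis list 2 of 30 were higher and 0 were lower, while the summed level was 11700 to 12140 CPM in KO, against 13350 to 13770 CPM in WT. Every KO library lay below every WT library in 11 members and above in 4, where 11% and 13.1% of all genes tested did. Without the 3 libraries that stand apart 9 members were called lower and 3 higher, where 1112 and 739 of all genes were. PFKFB4, which sets the rate of glycolysis, averaged 31.8 ± 4.82 CPM in KO, against 21 ± 0.831 CPM in WT, and BHLHE40, a repressor induced by low oxygen, 68.4 ± 17.4 CPM in KO, against 38.5 ± 1.16 CPM in WT, and both calls were lost without KO library 3, and that of PFKFB4 also without KO library 2 or any WT library. HSPA1A was the only one of 15 heat shock genes called, with 5.84, 5.20 and 5.71 CPM in KO, against 13.9, 13.8 and 13.7 CPM in WT (-1.27 ± 0.143, adjusted p = 1.78e-06). HSPA1A shares most of its sequence with HSPA1B, so its level is uncertain.

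Limma called no member in 16 of the 32 lists. The counts at an unadjusted p under 0.05 that follow stand beside 15.7% over all genes tested. Among them were p53 targets (26 genes, 2 at an unadjusted p under 0.05), integrated stress and unfolded protein response (25, 2), cholesterol and fatty acid synthesis (29, 4), cell cycle (31, 6), translation initiation factors (40, 3), splicing and RNA-binding regulators (37, 3), DNA methylation writers and erasers (14, 3), epithelial genes (20, 5) and replication-dependent histones (15 of 40 measured, 2). In edgeR these 9 lists had 0 called, and DESeq2 called 1 gene in the cholesterol list and 1 in the epithelial list. The 79 cytosolic ribosomal protein genes had 0 called by limma, edgeR or DESeq2 and 14 at an unadjusted p under 0.05, with a median of -0.35, which was 0.0059 without KO library 3. Their summed level was 61760, 64980 and 35160 CPM in KO, against 59880 to 65760 CPM in WT, so library 3 alone was low. The 13 mitochondrially encoded transcripts had 0 called by limma, edgeR or DESeq2 and 0 at an unadjusted p under 0.05.

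**Figure D4:**
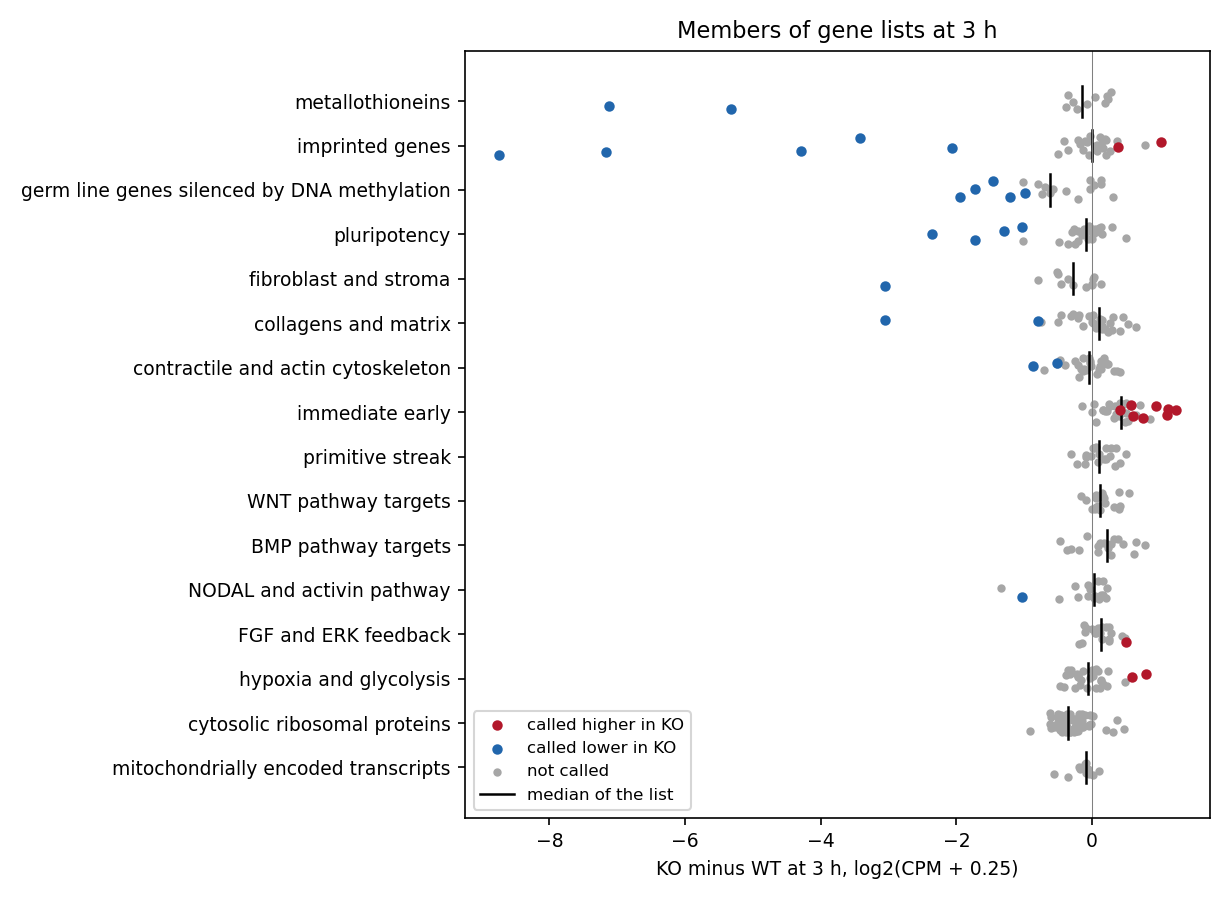
Log2 difference, KO minus WT at 3 h, of each measured member of 16 gene lists, with genes called higher in red, called lower in blue, others in grey, and the median of each list as a black bar. Imprinted genes and metallothioneins hold members below -5 beside members at 0, while immediate early genes lie mostly right of 0 with a median of 0.43.

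The comparison at 6 h rests on other libraries of both genotypes. The lower genes had a median log2 difference of -1.06 at 3 h and -0.97 at 6 h, and the higher genes 0.61 at 3 h and 0.27 at 6 h. Both sets were chosen by their calls at 3 h, which favours larger values at that hour. Of the 381 genes lower at 3 h, 379 had the same sign at 6 h and 275 were called lower there, 72.2% of the 3 h set and 73.1% of the 376 lower at 6 h (1.9% of genes tested, and 2.45% in either direction). Of the 171 higher genes, 149 had the same sign and 51 were called, 29.8% of the 3 h set and 46.4% of the 110 higher at 6 h (0.555%). The test of the difference between the hours called 0 genes in limma and in edgeR and 3 higher and 1 lower in DESeq2, with 817 genes at an unadjusted p under 0.05. A gene called at 3 h and not at 6 h is therefore not shown to differ between them. KO library 3 was the highest of its group in 103 of the 120 genes that were higher at 3 h and not called at 6 h, and in 25 of the 51 called at both hours. Without that library 84 genes were higher at 3 h, and 41 of them were called at 6 h.

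**Figure D5:**
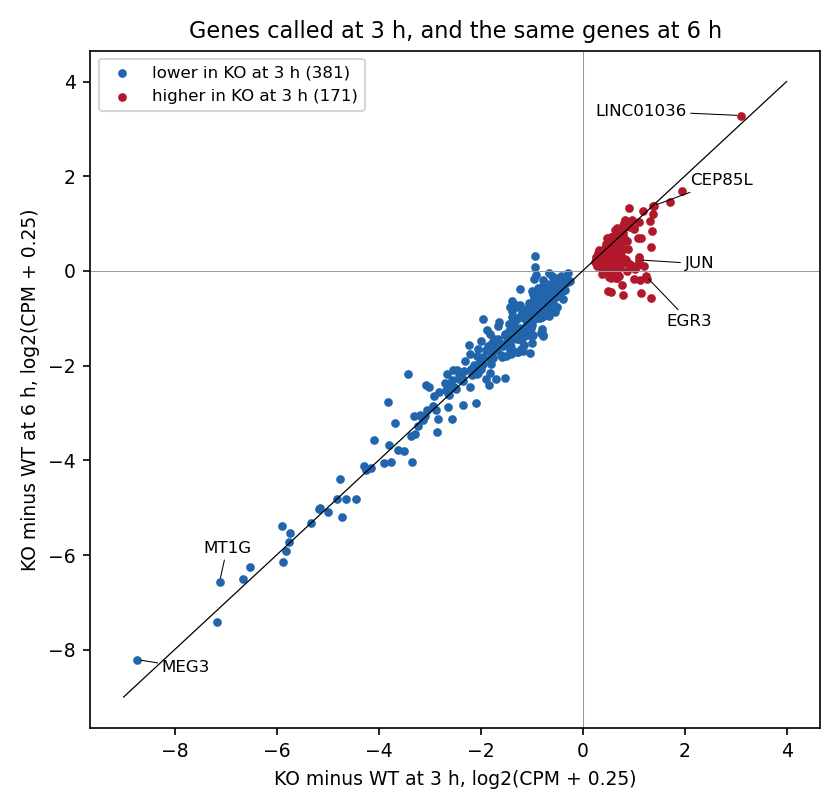
KO minus WT difference on the log2(CPM + 0.25) scale at 6 h (vertical axis) against that at 3 h (horizontal axis) for the 381 genes called lower at 3 h (blue) and the 171 called higher (red), with the line of equal difference. Lower genes lie along the line down to MEG3, at -8.74 and -8.21, while part of the higher genes, EGR3 and JUN among them, lie near 0 at 6 h.

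Against 0 h and 48 h the picture was different. One of the 3 WT libraries of 0 h, library 1, stood apart, as in MEG3 with 283.8 CPM against 793.9 and 1104 CPM in the other WT libraries of 0 h. The difference at 3 h was higher than that at 0 h in 712 genes (3.59%) and lower in 1081 (5.45%, and 9.04% in either direction), which included 91 of the 171 higher and 312 of the 381 lower genes. Without WT library 1 of 0 h these counts over all genes were 2458 and 2676. Of the 381 lower genes 32 were also lower at 0 h, where 1293 genes were lower (6.52%), and 106 were higher there, where 1739 genes were (8.77%). Against 48 h the difference was higher in 790 genes (3.98%) and lower in 1118 (5.64%, and 9.62% in either direction), with 96 of the higher and 289 of the lower genes among them. At 48 h itself 67 of the 381 were also lower, where 1005 genes were (5.07%), and 115 were higher, where 1360 were (6.86%). The median log2 difference of the 381 was -1.06 at 3 h, -0.97 at 6 h, 0.22 at 0 h and 0.18 at 48 h. Among the 171 higher genes the medians were 0.61 at 3 h, 0.27 at 6 h, -0.0085 at 0 h and -0.044 at 48 h. Here too the choice of both sets at 3 h favours larger values at 3 h.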

How the data were processed

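RNA-seq of 24 libraries was used, 6 of them from 3 h. The authors deposited gene levels as CPM, counts scaled to the library total, with genome build hg38 and DESeq2 named per the submitters' processing notes. They also deposited transcript counts, used only to check names. An aligner is not given in the sources used here. Column names of the gene table sat 1 cell off; once realigned, 22 of 24 libraries, all 6 of 3 h among them, matched their namesake in the transcript table best, against 0 before. No column was left unmapped. Whole reads were recovered from the CPM steps (100% of values whole within 0.1 read). Symbols were found for 51184 of 57820 identifiers (88.5%), and positions are those of GENCODE 29 (GRCh38), although the identifiers appear to come from an older release.

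Genes passing filterByExpr (minimum count 10, minimum total 15) were tested with limma 3.58.1 trend on log2(CPM + 0.25), TMM-scaled, in 1 fit over all 8 groups (16 residual degrees of freedom). A fold change on that scale understates the change of low genes. Calls had Benjamini-Hochberg adjusted p under 0.05. On the recovered reads edgeR 4.0.16 called 179 higher and 378 lower genes and DESeq2 1.42.0 was also run (R 4.3.3, Python 3.11). The tests were tried on simulated data.

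The members and lists were chosen with earlier results of these data known. Named genes were RBPMS and RBPMS2, the 14 largest called changes in each direction among genes of at least 5 CPM, the 4 largest each way of each difference between hours, up to 4 members of each list by adjusted p, and fixed markers. Other genes named, and the near-silent rule and zinc finger grouping, were chosen after their values were seen.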

Additional observations from a re-analysis of the deposited data

Results flagged for a closer look

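The KO minus WT difference at 3 h was tested against the same difference at 0 h and at 48 h in limma, as a difference of differences. Against 0 h it was higher in 712 genes and lower in 1081, and against 48 h higher in 790 and lower in 1118. These comparisons share the 3 h libraries.

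Against 0 h the log2 values were 4.34 for LINC01036, 2.44 for the pseudogene LRRC37A11P, 2.35 for ID3 and 2.23 for ARC. Those on the lower side were -9.35 for MEG3, -8.74 for MT1G, -8.36 for MT1H and -6.65 for ZNF558. LRRC37A11P and ID3 were not called in KO against WT at 3 h itself (limma, adjusted p = 0.557 and 0.105). Without WT library 1 of 0 h, which stood apart, the values were 3.07 for LINC01036, 1.35 for LRRC37A11P, 2.70 for ID3 and 2.47 for ARC, and -8.75 for MEG3, -8.47 for MT1G, -8.83 for MT1H and -6.93 for ZNF558.

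Against 48 h they were 5.05 for LINC01036, 4.91 for MIR924HG, 4.80 for TAF9B and 4.59 for YPEL3-DT, and -10.0 for MEG3, -9.34 for MT1G, -6.94 for ZNF253 and -6.25 for ZNF844. MIR924HG, TAF9B and YPEL3-DT were not called in KO against WT at 3 h itself (limma, adjusted p = 0.938, 0.953 and 0.291). Their KO minus WT values were 0.16, -0.11 and 1.16 at 3 h, and -4.74, -4.9 and -3.43 at 48 h.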

How the results depend on the processing

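Of 54 named genes called at 3 h, 35 kept the call under every setting that gave a value and 19 lost it under at least 1. Among calls lost without KO library 3 alone, only that of GATA2 was also lost without the 3 libraries that stand apart. Of the 113 not called, 56 gained a call under at least 1. The higher count at 3 h was 108 with at least 5 CPM in 3 libraries, 327 with DESeq2, 1006 with array weights, 73 with only the groups compared and 739 without the 3 libraries that stand apart. The lower count was 1402 with array weights and 1112 without those 3. Chosen after seeing the data, a fit of the 3 h groups without KO library 3 gave 928 and 1542, and leaving WT library 1 of 0 h out gave 450 and 771. Leaving out 1 replicate gave 58 to 284 higher and 277 to 421 lower.

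Against 6 h, higher calls were 1 with a pseudocount of 1, 3 with DESeq2, 51 with array weights, 1 with only the groups compared and 14 without the 3 libraries. Lower calls were 1, 16 and 4 with DESeq2, array weights and without the 3 libraries. Leaving out 1 replicate gave 0 to 2 higher and 0 to 0 lower. Against 0 h, array weights gave 2270 and 2810, only the groups compared 160 and 501, without the 3 libraries 3930 and 3751, and leaving out 1 replicate 430 to 2458 and 816 to 2676. Against 48 h the higher count was 484 at 5 CPM, array weights gave 2386 and 2735, without the 3 libraries 1628 and 2267, and leaving out 1 replicate 474 to 1001 and 914 to 1217. The cause of these shifts was not tested.

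Equal replicate numbers did not pair the libraries (correlations of deviations -0.00947, -0.000562 and -0.183). With the replicate block 150 genes were higher and 362 lower.

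No called value of a named gene changed sign, and 14 of the 113 not called did. On the log2 scale, values of the other sign with array weights were 0.0217 for TAF9B, 0.0836 for MT1F, -0.0266 for BAG3, 0.167 for MT-ND3, 0.0993 for MT-CO3, 0.138 for MT-CO2, -0.0468 for TBXT and -0.176 for SP5. Without the 3 libraries they were 0.0489 for TAF9B, 0.155 for MT1F, -0.0331 for BAG3, 0.148 for MT-ND3, 0.0614 for MT-CO3, 0.0832 for MT-CO2, -0.0781 for TBXT and -0.184 for SP5. With only the 3 h groups and no KO library 3 they were -0.0151 for RBPMS2, 0.0291 for TAF9B, 0.135 for MT1F, -0.0528 for BAG3, 0.128 for MT-ND3, 0.0414 for MT-CO3, 0.0633 for MT-CO2, -0.0974 for TBXT and -0.203 for SP5. AXIN2 stood at 0.0209 in edgeR and 0.00959 in DESeq2. Leaving out 1 replicate gave -0.054 to 0.394 for MIR924HG, -0.206 to 0.0454 for TAF9B, -0.691 to 0.151 for MT1F, -0.0367 to 0.311 for BAG3, -0.753 to 0.145 for MT-ND3, -0.463 to 0.0578 for MT-CO3, -0.5 to 0.0796 for MT-CO2, -0.0816 to 0.21 for TBXT, -0.0454 to 0.257 for MIXL1, -0.197 to 0.109 for AXIN2, -0.188 to 0.194 for SP5, -0.0466 to 0.714 for MT2A and -0.167 to 0.064 for DNMT3B.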
